A study of Mus musculus with 8 samples.

Results

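Solute carriers of the plasma membrane and related families were compared between Lrp5-deficient and control mouse osteoblasts. Solute carriers are membrane proteins that move small molecules across a lipid bilayer, either down their gradient or coupled to sodium, protons or a counter-substrate. In a bone-forming cell they bring in the amino acids used to build collagen, the sugars used for glycolysis, and zinc and other metals used by matrix enzymes. The members were all array probes whose gene symbol begins with Slc, a family number and the letter a. The mitochondrial Slc25 and fatty acid Slc27 families were left out, as were Slc2a1, Slc16a3, Slc20a1, Slc20a2, Slc40a1 and Slc11a2. This gave 369 of the 25697 probes on the array, for 250 genes of the 16593 with a named probe. The symbol rule also took in 4 genes that are not carriers (Slc9a3r1, Slc9a3r2, Slc4a1ap and Slc7a6os), and carriers of internal membranes, so "plasma membrane" describes only some of the members.

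The cells were osteoblasts, which build bone matrix, in primary culture from the calvaria of C57Bl/6 mice. There were 4 arrays labelled Lrp5 knockout (genotype Lrp5-/-, called Lrp5 KO here) and 4 labelled control (genotype Lrp5+/+). All cultures had been given an adenovirus 48 hours before differentiation began, encoding either green fluorescent protein or the recombinase Cre, and the labels do not say which virus went to which group. Differentiation then ran for 7 days in medium with beta-glycerol phosphate (10 mM) and ascorbic acid (50 ug/ml). Lrp5 is a receptor that works with Frizzled proteins in Wnt signalling, and the series concerns its role in how osteoblasts use fatty acids. The labels do not say whether the arrays came from separate mice or cultures, so p-values measure the spread between these samples, which may be technical.

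The Lrp5 probe did not check the labels. It read 5.63, 5.66, 6.07 and 6.10 on the log2 intensity scale on Lrp5 KO arrays and 5.43, 5.70, 5.48 and 5.53 on control arrays, and was detected on 2 Lrp5 KO arrays and 1 control array. The difference was 0.33 (limma adjusted p = 0.25 without a detection filter), and the sources used here do not place the probe relative to any deleted exon. Of 8 osteoblast markers on the array, 5 were tested (Col1a1, Col1a2, Alpl, Sp7 and Ibsp), none passed the threshold, and Bglap, Dmp1 and Phex were detected on no array. All 5 lay above 0 with a median of 0.16, among them Ibsp at 0.58 (limma adjusted p = 0.07) and Col1a2 at 0.34 without overlap (0.0561). Ibsp was detected on 4 Lrp5 KO arrays and 1 control array, so it met the detection rule mainly through the group where it read higher. The part of these markers in the carrier differences was not tested. Between 9685 and 10363 probes were detected per array, and the mean Pearson correlation of arrays was 0.994 within groups and 0.99 between groups. In these bulk cultures, fewer cells of a type and less RNA per cell cannot be told apart.

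Many solute carrier genes had no measurable signal in these cells. A probe counted as detected on an array when its detection p was under 0.01, and a gene was tested when a probe was detected on at least 4 of the 8 arrays. By this rule 83 of the 250 genes were tested (33.2%), beside 42.4% of all genes on the array, 12 had a best probe detected on 1 to 3 arrays, and 155 were detected on no array. Where 1 array with a detection p below 0.05 sufficed, 126 of the 250 would pass (50.4%), beside 56.9% of all genes. The carrier groups with the highest share tested were the nucleotide sugar carriers of the Slc35a family (4 of 5 genes, 80%) and the metal carriers (20 of 27, 74.1%). Amino acid carriers had 19 of 62 genes tested (30.6%), sugar carriers 8 of 26 (30.8%), nucleoside carriers 2 of 8 (25%) and ion carriers 9 of 44 (20.5%). Among carriers of other substrates, which include vitamins, choline, creatine, bile acids and dicarboxylates, 17 of 74 genes were tested (23%).

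From a list of 28 carriers important for bone, connective tissue or basic nutrition, 26 were on the array and 17 were tested. The others on the array were not tested, most of them without signal. The glutamine carriers Slc1a5 and Slc38a1, the arginine and lysine carrier Slc7a1, the insulin-responsive glucose carrier Slc2a4, the lactate carrier Slc16a1, the ascorbate carrier Slc23a1, the sulfate carrier Slc26a2 and the potassium-chloride cotransporter Slc12a4 were detected on no array. The citrate carrier Slc13a5 was detected on 0 Lrp5 KO arrays and 3 control arrays, too few to be tested. A silent probe does not show that a transcript is absent, since probe sensitivity varies. For the bicarbonate carrier Slc4a7 no probe was named.

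**Figure D1:**
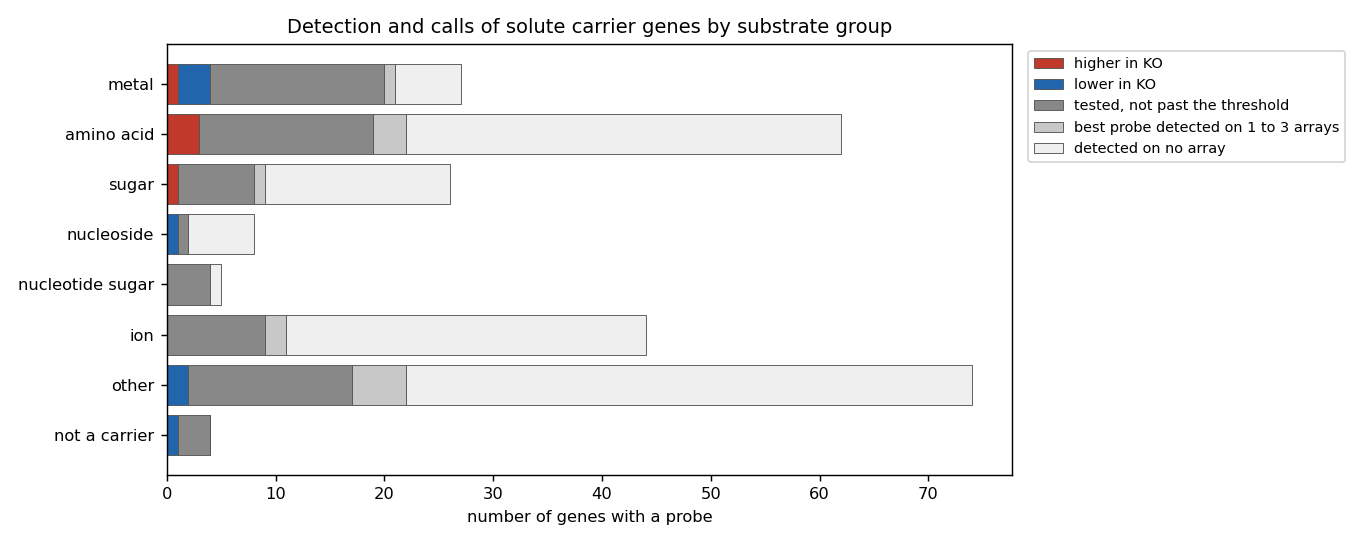
Number of genes with a probe in each substrate group (horizontal axis), split by detection and by the limma result. Metal carriers had 20 of 27 genes tested, against 9 of 44 ion carriers, and 155 of all 250 genes were detected on no array.

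The number of member probes detected per array was 101, 111, 101 and 103 on Lrp5 KO arrays and 103, 112, 107 and 110 on control arrays. These counts overlapped, with a mean of 104 ± 4.76 on Lrp5 KO arrays and 108 ± 3.92 on control arrays (SD, n = 4 each; exact two-sided permutation p = 0.257). At a looser detection p of 0.05 the counts no longer overlapped, at 130.2 ± 0.957 on Lrp5 KO arrays and 136.8 ± 0.5 on control arrays. That difference of -6.5 probes had an exact permutation p of 0.0286, the smallest that the 70 assignments of 8 arrays can give. Over all probes the counts were also lower in Lrp5 KO, with a difference of -213 at a detection p under 0.01 (exact p = 0.229), and at 0.05 with 11567 ± 223 on Lrp5 KO arrays and 11827.5 ± 101 on control arrays (SD, n = 4 each; exact p = 0.114). Whether the members' counts differ beyond that array-wide shift was not tested.

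Of the 83 genes tested, 5 rose and 7 fell in Lrp5 KO cultures at a limma adjusted p under 0.05. Over all 7041 genes tested, 607 (8.62%) passed this threshold, 249 higher (3.54%) and 358 lower (5.08%) in Lrp5 KO. The share among the members was 14.5%, and the difference between these shares was not tested. With the looser detection filter 5.56% of members were called, beside 4.33% of all genes, and without a filter 2% of members, beside 2.27%. The groups did not overlap for 19 members (22.9%), against 16.8% of all genes tested. The median change of the members was 0.06 with 51 of 83 above 0, beside a median of 0 over all genes, of which 50% were above 0. With each array scaled to its 75th percentile, 51.8% of the 653 calls over all genes were higher in Lrp5 KO, against 41% with quantile normalization. The split between rises and falls over all genes thus depends on the scaling. Among the members, 5 were higher and 6 lower with 75th percentile scaling.

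Without the scaffold protein Slc9a3r2, 11 of the 79 carriers tested were called, 5 higher and 6 lower. By their usual location, 6 of these 11 act at the cell surface (Slc39a4, Slc39a6, Slc6a9, Slc7a7, Slc6a8 and Slc13a3), of which 2 rose and 4 fell. The other 5 act at internal membranes (Slc11a1, Slc30a7, Slc15a3, Slc2a6 and Slc29a3), of which 3 rose and 2 fell. Control array 4 lay nearest to the Lrp5 KO mean for 9 of the 12 called members (75%) and for 45% of the 607 called genes. Without that array 13 members were called, the same 12 and 1 more.

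**Figure D2:**
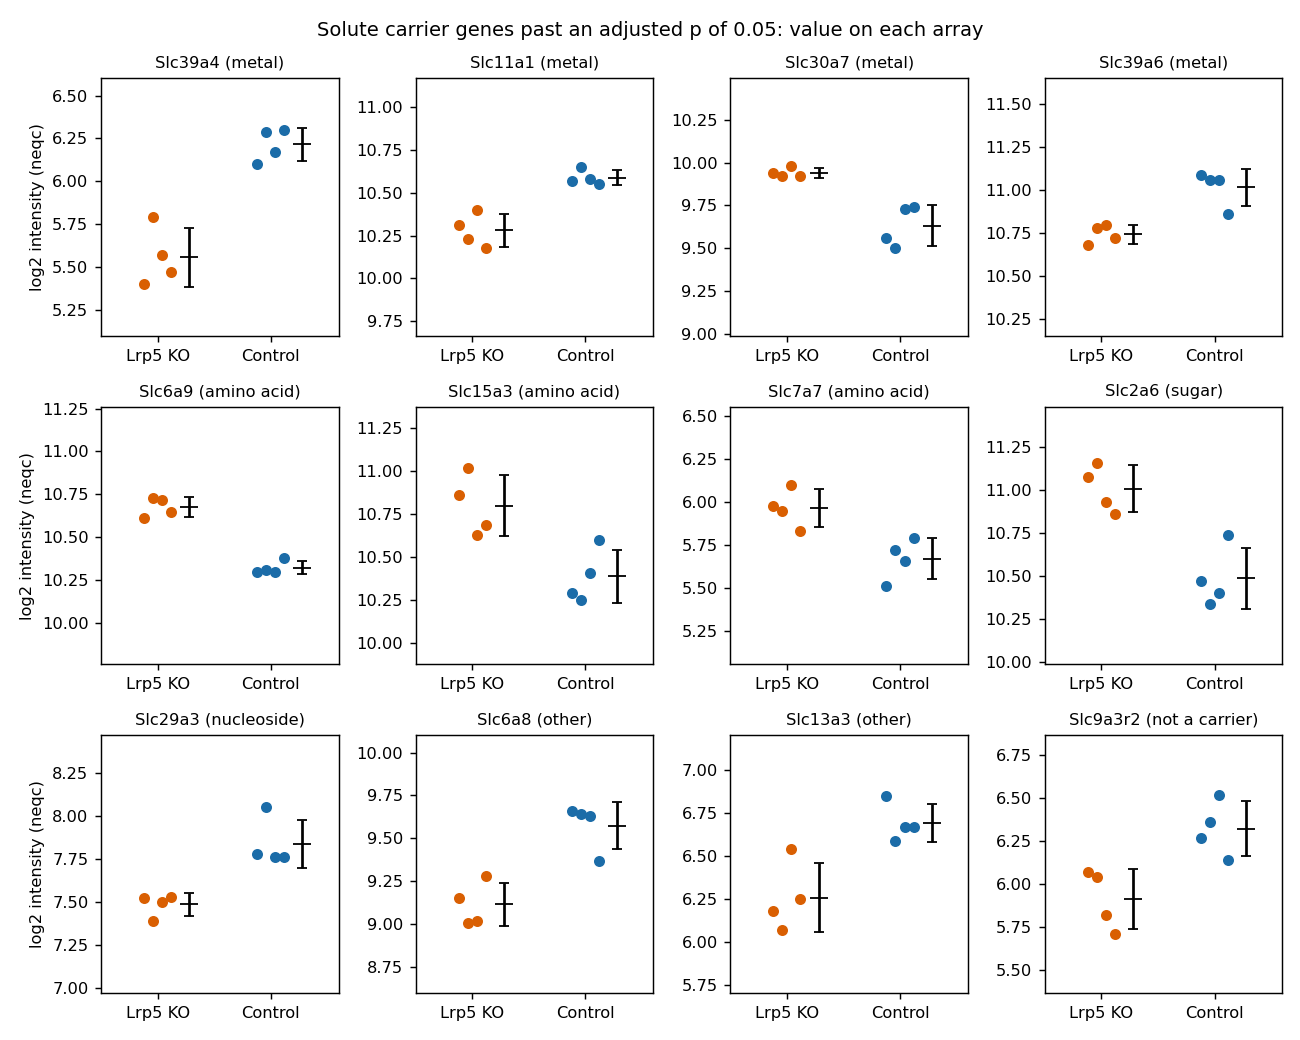
The log2 normalized intensity of the 12 called members on each array (vertical axis, different range in each panel), with Lrp5 KO arrays to the left of control arrays and the mean ± SD of 4 arrays beside the points. The groups do not overlap for any of the 12.

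Of 20 metal carriers tested, 3 were lower and 1 higher (20% called), beside 5.08% lower and 3.54% higher over all genes tested. Whether this share differs was not tested, and only Slc39a4 of these kept its call with every array left out in turn. The zinc carriers come in 2 families with opposed directions of transport. ZIP proteins (Slc39) bring zinc into the cytosol, and ZnT proteins (Slc30) move it out of the cell or into organelles. Of 9 ZIP genes tested, 2 fell and none rose (22.2% called), and of 5 ZnT genes tested, 1 rose and none fell (20%). These few calls do not show a difference between the families. The median change was 0.04 in each family, and differences ran from -0.66 to 0.30 among the ZIP genes and from -0.07 to 0.31 among the ZnT genes.

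Slc39a4 encodes ZIP4, the zinc importer of the gut epithelium whose loss causes the human zinc deficiency disease acrodermatitis enteropathica. Its log2 intensity was 5.40, 5.79, 5.57 and 5.47 on Lrp5 KO arrays and 6.10, 6.29, 6.17 and 6.30 on control arrays. Every Lrp5 KO array read below every control array. The gene fell by 0.66 on the log2 scale (SE 0.09, limma adjusted p = 0.00271). The probe was detected on 1 of 4 Lrp5 KO arrays and on 4 of 4 control arrays, so the value for Lrp5 KO lies near background and the size of the change is not exact. It was -0.23 without background correction or with the authors' log2 table, still past the threshold. The gene's other probe was detected on no array.

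Slc39a6 encodes ZIP6, a zinc importer of the plasma membrane. It read 10.68, 10.78, 10.80 and 10.72 on Lrp5 KO arrays and 11.09, 11.06, 11.06 and 10.86 on control arrays. The groups did not overlap, and control array 4 was the lowest of its group. Slc39a6 fell by 0.27 (SE 0.07, limma adjusted p = 0.0356). The call was lost when any array but control array 4 was left out (adjusted p 0.0607 to 0.0928), and with 75th percentile scaling (0.0677).

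Slc30a7 encodes ZnT7, which loads zinc into the Golgi apparatus, where zinc enzymes such as alkaline phosphatase receive it. It read 9.94, 9.92, 9.98 and 9.92 on Lrp5 KO arrays and 9.56, 9.50, 9.73 and 9.74 on control arrays. The Lrp5 KO arrays lay close together and above all control arrays. Slc30a7 rose by 0.31 (SE 0.07, limma adjusted p = 0.024), and its second detected probe was 0.18 higher without passing the threshold (adjusted p over probes = 0.186). The call was lost when Lrp5 KO array 1, 2 or 3 or control array 1 or 2 was left out (adjusted p 0.0549 to 0.0659).

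Slc11a1 encodes NRAMP1, a proton-coupled metal carrier of the phagosome that is best known in macrophages. Its brightest probe read 10.31, 10.23, 10.40 and 10.18 on Lrp5 KO arrays and 10.57, 10.65, 10.58 and 10.55 on control arrays. The ranges were apart. This probe fell by 0.31 (SE 0.06, limma adjusted p = 0.017), but the gene's other detected probes differed by 0 and -0.18 and did not pass. With the mean of the 3 probes the adjusted p was 0.208. It was 0.0527 without Lrp5 KO array 2 and 0.0522 without control array 2.

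Markers of macrophages were measured beside Slc11a1. Of 13 listed symbols, of which Emr1 and Adgre1 name the same gene, 10 were on the array and 4 were tested. All 4 lay below 0 without passing the threshold: Adgre1 (-0.26), Cd14 (-0.12), Tyrobp (-0.27) and Lyz2 (-0.21). Tyrobp was near background, detected on 1 Lrp5 KO array and 3 control arrays, so it met the detection rule mainly through the group where it read higher. Adgre1 passed in 4 of 12 other settings, and Lyz2 in 3 of 12 and without Lrp5 KO array 4 (adjusted p = 0.0456). The summed linear intensity of the 4 was 2340 to 2850 on Lrp5 KO arrays and 2720 to 3100 on control arrays, which overlap. The defining markers Ptprc, Itgam, Fcer1g, C1qa and C1qc were detected on no array, and C1qb had a best probe detected on 2. Their part in the difference in Slc11a1 was not tested.

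The other metal carriers showed no call in the limma fit. Slc39a13, the ZIP13 zinc carrier of internal membranes whose loss causes a connective tissue disorder in humans, was 0.10 higher (adjusted p = 0.357) by its brightest probe. A dimmer probe of Slc39a13 was 0.30 higher and passed over all probes (adjusted p = 0.0467), so the probes disagree on the call. Slc39a14, a carrier of zinc, iron and manganese, differed by 0.17 (adjusted p = 0.315). Slc30a5, which works in the early secretory pathway, differed by 0.04 by one probe and by -0.10 by the other. The remaining metal carriers ranged from -0.16 for the copper importer Slc31a1 to 0.30 for the zinc importer Slc39a1.

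Metallothioneins, small zinc-binding proteins whose transcription rises with cytosolic zinc, were measured as a list of zinc-responsive genes. Mt2 read 8.91, 8.86, 9.16 and 8.93 on Lrp5 KO arrays and 8.45, 8.20, 8.15 and 8.77 on control arrays. Mt2 rose by 0.57 (SE 0.13, limma adjusted p = 0.0249), with no overlap between the groups. The call for Mt2 was lost without Lrp5 KO array 3 or control array 1, 2 or 3 (adjusted p 0.0512 to 0.07). Mt1 differed by 0.18 (adjusted p = 0.222) with overlapping groups. Mtf1, the zinc-sensing transcription factor, was not tested because its best probe was detected on 1 array.

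Of 19 amino acid carriers tested, 3 were higher, none lower and 16 not past the threshold (15.8% called, beside 8.62% of all genes tested). Their median change was 0.09, with 13 of 19 above 0. Slc6a9 encodes GlyT1, the sodium- and chloride-coupled glycine importer, and glycine is the most frequent residue of collagen. Slc6a9 read 10.61, 10.73, 10.72 and 10.65 on Lrp5 KO arrays and 10.30, 10.31, 10.30 and 10.38 on control arrays. The control arrays were nearly level and all lay below the lowest Lrp5 KO array. Slc6a9 rose by 0.36 (SE 0.06, 95% interval 0.23 to 0.48, limma adjusted p = 0.00554), a ratio of 1.28 for Lrp5 KO over control.

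Slc15a3 encodes a lysosomal carrier that exports histidine and small peptides to the cytosol. It read 10.86, 11.02, 10.63 and 10.69 on Lrp5 KO arrays and 10.29, 10.25, 10.41 and 10.60 on control arrays. The lowest Lrp5 KO array stood just above control array 4, the highest of its group. Slc15a3 rose by 0.41 (SE 0.10, limma adjusted p = 0.0362). Leaving out Lrp5 KO array 1 or 2 or control array 1, 2 or 3 ended the call (adjusted p 0.0792 to 0.0973).

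Slc7a7 encodes y+LAT1, which pairs with the heavy chain Slc3a2 and exchanges cationic for neutral amino acids. Slc7a7 was dim, at 5.98, 5.95, 6.10 and 5.83 on Lrp5 KO arrays and 5.51, 5.72, 5.66 and 5.79 on control arrays. It was detected on 4 Lrp5 KO arrays and 2 control arrays, and the groups nearly touched. By this probe Slc7a7 rose by 0.29 (SE 0.08, limma adjusted p = 0.0483). A second probe, detected on 1 Lrp5 KO and 2 control arrays and so not tested, averaged 5.67 on Lrp5 KO arrays and 5.71 on control arrays. Only leaving out Lrp5 KO array 4 or control array 4 kept the call, and without each of the other 6 arrays the adjusted p was 0.0877 to 0.113. It also failed in 8 of 11 other settings, with a difference of 0.10 without background correction (adjusted p = 0.198).

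Several amino acid carriers had sizeable differences that missed the threshold. Slc7a2, a carrier of arginine and lysine named here after its value was seen, averaged 10.08 ± 0.18 on Lrp5 KO arrays and 9.64 ± 0.26 on control arrays (SD, n = 4 each), a difference of 0.45 with an adjusted p of 0.0611. Slc7a2 passed in 7 of 12 other settings, and without Lrp5 KO array 1 or control array 4. Slc7a11, the cystine importer that feeds glutathione synthesis, differed by 0.32 (adjusted p = 0.101) and passed in 4 of 12 other settings. The glutamate carrier Slc1a3 differed by -0.28 (adjusted p = 0.343), and its Lrp5 KO arrays spread from 8.07 to 8.82.

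Slc7a5, the leucine importer LAT1, was 12.29 ± 0.04 on Lrp5 KO arrays and 12.20 ± 0.07 on control arrays (SD, n = 4 each). The difference of 0.09 had a 95% interval of -0.04 to 0.22 (adjusted p = 0.371). Its heavy chain Slc3a2 differed by 0.12 (adjusted p = 0.52). The glutamine carrier Slc38a2, which also carries alanine and proline, differed by -0.10 (adjusted p = 0.492), and the taurine carrier Slc6a6 by -0.10 (adjusted p = 0.603). None of these 4 carriers passed the test.

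Amino acid shortage induces many of these carriers through ATF4, a transcription factor that also controls amino acid supply in osteoblasts. Of 9 known ATF4-target carriers, 7 were tested, 1 rose (Slc6a9) and none fell, with a median change of 0.11. Over all genes tested, 8.62% were called. Slc1a4, which carries alanine, serine and cysteine, differed by 0.11 (adjusted p = 0.302), and Slc7a3, a cationic amino acid carrier, by -0.23 (adjusted p = 0.0816). In a list of 16 amino acid sensing genes 12 were tested and none passed. Atf4 itself differed by 0.32 (adjusted p = 0.0978), Trib3 by 0.23 (0.124) and Asns, asparagine synthetase, by 0.19 (0.0586), and 9 of the 12 lay above 0. Asns passed in 5 of 12 other settings, and Atf4 in 4 of 12 and without control array 1 (0.0492).

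Promoters were searched for the composite element through which ATF4 and C/EBP proteins bind amino acid response genes. The letters searched were TGATGCAA on both strands, in the RefSeq windows of 300 bases (250 before to 50 after each gene's start, GRCm38.p6). The element lay in 294 of 32851 windows (0.895%), or 279 of 27025 genes (1.03%). Of 195 members with a window 5 held it, among them 4 of the 67 tested members with one. These 4 windows are shown because 3 belong to amino acid carriers described above, with the matched letters in capitals. Each is on the minus strand, written 5′ to 3′ in the direction of transcription: Slc7a11 at chr3:50443564-50443863, Slc7a7 at chr14:54417653-54417952, Slc1a4 at chr11:20332664-20332963 and Slc50a1 at chr3:89270521-89270820.
Slc7a11: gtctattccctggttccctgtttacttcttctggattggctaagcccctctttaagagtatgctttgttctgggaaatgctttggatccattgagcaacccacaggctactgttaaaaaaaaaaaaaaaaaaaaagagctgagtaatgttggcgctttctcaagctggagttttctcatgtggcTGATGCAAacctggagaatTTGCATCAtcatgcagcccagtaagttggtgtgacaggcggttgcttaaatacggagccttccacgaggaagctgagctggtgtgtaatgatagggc
Slc7a7: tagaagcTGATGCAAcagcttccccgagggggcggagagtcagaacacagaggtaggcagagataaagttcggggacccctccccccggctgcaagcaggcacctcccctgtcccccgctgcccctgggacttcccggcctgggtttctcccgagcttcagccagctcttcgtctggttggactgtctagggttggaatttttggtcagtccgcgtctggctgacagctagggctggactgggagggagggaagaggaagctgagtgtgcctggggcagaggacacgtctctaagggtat
Slc1a4: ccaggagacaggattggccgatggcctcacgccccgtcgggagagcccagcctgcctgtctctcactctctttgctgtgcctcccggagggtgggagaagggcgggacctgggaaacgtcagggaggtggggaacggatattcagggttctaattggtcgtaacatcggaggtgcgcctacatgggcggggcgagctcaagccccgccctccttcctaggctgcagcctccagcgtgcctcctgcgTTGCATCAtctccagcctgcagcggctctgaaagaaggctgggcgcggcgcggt
Slc50a1: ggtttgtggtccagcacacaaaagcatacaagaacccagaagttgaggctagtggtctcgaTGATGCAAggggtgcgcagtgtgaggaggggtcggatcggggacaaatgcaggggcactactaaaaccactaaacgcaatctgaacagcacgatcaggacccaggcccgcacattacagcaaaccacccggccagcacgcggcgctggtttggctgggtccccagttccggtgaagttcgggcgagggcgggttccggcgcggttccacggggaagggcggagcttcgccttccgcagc

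The Slc7a11 window held 2 matches, which begin 66 and 47 bases before the start and lie on opposite strands. The match of Slc7a7 began 243 bases before the start in the window printed. Of its 5 windows 2 held a match, but these 2 overlap and hold the same site. In the other of the 2 (chr14:54417895-54418194) that site begins just before the start and runs past it. The match began 4 bases before the start in Slc1a4 and ran past it, and began 189 bases before the start in Slc50a1. The 4 genes differed by 0.32 (Slc7a11), 0.29 (Slc7a7), 0.11 (Slc1a4) and 0.17 (Slc50a1, adjusted p = 0.20), and Slc7a7 was the only one called. Slc6a9, the called ATF4 target, was not among the members with a match. Not every tested member had a window, and only the exact letters TGATGCAA were searched. A match is a run of letters and not a measured site, and its part in the differences was not tested.

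**Figure D3:**
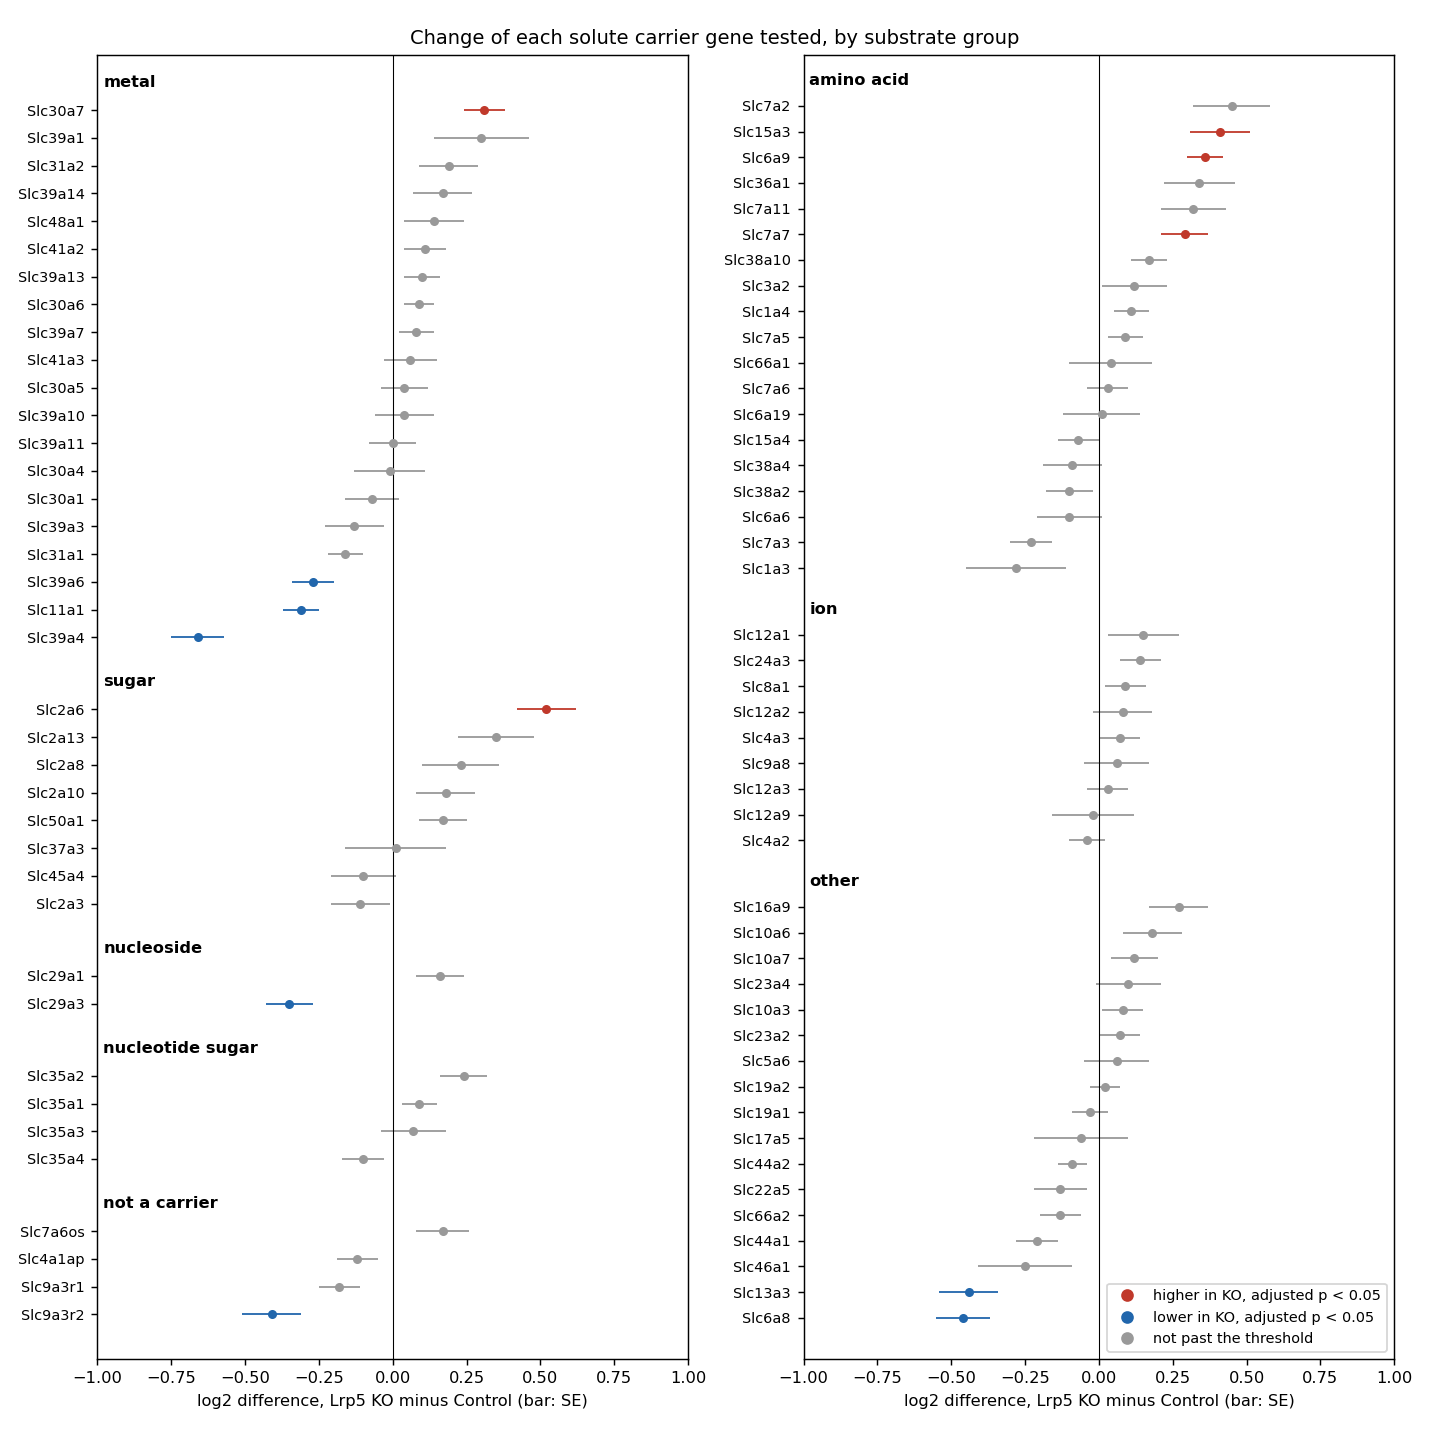
The difference in log2 intensity, Lrp5 KO minus control (horizontal axis, bars are SE), for each of the 83 members tested, grouped by substrate. Slc2a6 was 0.52 higher, Slc6a8 fell by 0.46, and the 9 ion carriers lay between -0.04 and 0.15.

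Sugar carriers had 1 member higher and none lower of 8 tested, with a median change of 0.18. The share called was 12.5%, beside 8.62% of all genes tested. Slc2a6 encodes GLUT6, a hexose carrier that resides in lysosomes and is abundant in immune cells. It read 11.08, 11.16, 10.93 and 10.86 on Lrp5 KO arrays and 10.47, 10.34, 10.40 and 10.74 on control arrays. All Lrp5 KO arrays lay above all control arrays, of which array 4 was the highest. Slc2a6 rose by 0.52 (SE 0.10, 95% interval 0.30 to 0.74, limma adjusted p = 0.0119), a ratio of 1.43 and the largest rise among the members.

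The other sugar carriers tested did not pass. Slc2a13, a proton-coupled myo-inositol carrier, differed by 0.35 (adjusted p = 0.129) and passed only when control array 2 was left out (0.043), among all settings tried. Slc2a3, a high-affinity glucose carrier, differed by -0.11 (adjusted p = 0.52), with a 95% interval of -0.32 to 0.11. Of 10 Slc2 genes on the array 5 were tested, and 4 of these 5 lay above 0.

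Of the nucleoside carriers, 2 were tested and 1 fell, too few to set beside the 8.62% of all genes called. Slc29a3 encodes ENT3, which releases nucleosides from lysosomes. Slc29a3 read 7.52, 7.39, 7.50 and 7.53 on Lrp5 KO arrays and 7.78, 8.05, 7.76 and 7.76 on control arrays. The Lrp5 KO arrays all lay below the controls, and control array 2 stood above the rest of its group. Slc29a3 fell by 0.35 (SE 0.08, limma adjusted p = 0.0233), and its change was -0.23 without background correction, past the threshold. The adjusted p was 0.0688 without Lrp5 KO array 2 and 0.0522 without Lrp5 KO array 3. Slc29a1, the equilibrative nucleoside carrier of the plasma membrane, differed by 0.16 in the other direction (adjusted p = 0.208).

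Slc29a3 was the only call among 17 tested from a list of 28 carriers important for bone, connective tissue or basic nutrition. Of these 28, 26 were on the array, and 8.62% of all genes tested were called. Nucleotide sugar carriers feed glycosylation in the Golgi, and none of 4 tested passed the threshold. The UDP-galactose carrier Slc35a2 differed by 0.24 without overlap (adjusted p = 0.083), and passed in 4 of 12 other settings. The CMP-sialic acid carrier Slc35a1 differed by 0.09 (adjusted p = 0.369), and Slc35a4 by -0.10 (adjusted p = 0.348).

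Ion carriers stayed closest together. None of 9 tested passed, their groups overlapped in all 9, and differences ran from -0.04 to 0.15. The sodium-calcium exchangers Slc24a3 and Slc8a1 differed by 0.14 (adjusted p = 0.244) and 0.09 (adjusted p = 0.442). The sodium-potassium-chloride cotransporters Slc12a1 and Slc12a2 differed by 0.15 (adjusted p = 0.491) and 0.08 (adjusted p = 0.632), and the second detected probe of Slc12a1 by -0.10. The anion exchanger Slc4a2, known from the acid balance of osteoclasts, differed by -0.04 with a 95% interval of -0.18 to 0.09. For Slc12a2 the sign turned without control array 4 (-0.02).

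Among carriers of other substrates, 2 fell and none rose of 17 tested (11.8% called, beside 8.62% of all genes tested). Slc6a8 encodes the creatine importer, which supplies the phosphocreatine energy buffer. It read 9.15, 9.01, 9.02 and 9.28 on Lrp5 KO arrays and 9.66, 9.64, 9.63 and 9.37 on control arrays. Control array 4 came nearest to the Lrp5 KO arrays, and the groups did not overlap. Slc6a8 fell by 0.46 (SE 0.09, 95% interval -0.66 to -0.27, limma adjusted p = 0.0116), so creatine uptake and glycine uptake genes of the Slc6 family differed in opposite directions.

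Slc13a3 encodes NaDC3, a sodium-coupled carrier of succinate and other dicarboxylates. It read 6.18, 6.07, 6.54 and 6.25 on Lrp5 KO arrays and 6.85, 6.59, 6.67 and 6.67 on control arrays. Lrp5 KO array 3 reached nearly to the lowest control. Slc13a3 fell by 0.44 (SE 0.10, limma adjusted p = 0.0267), and its change was -0.19, past the threshold, without background correction or with the authors' log2 table. The call ended without Lrp5 KO array 1, 2 or 4 or control array 1 or 3 (adjusted p 0.0564 to 0.072).

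The choline carrier Slc44a1 differed by -0.21 (adjusted p = 0.0904) without overlap. The ascorbate carrier Slc23a2, which takes up the vitamin added to these cultures, differed by 0.07 (adjusted p = 0.532). Its 95% interval was -0.08 to 0.22, and its array values ran from 7.67 to 7.85 on Lrp5 KO arrays and from 7.57 to 7.76 on control arrays.

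Of the 4 members that are not carriers, Slc9a3r2 fell. It encodes NHERF2, a scaffold that ties ion exchangers to the actin cortex. It read 6.07, 6.04, 5.82 and 5.71 on Lrp5 KO arrays and 6.27, 6.36, 6.52 and 6.14 on control arrays, and was detected on 3 Lrp5 KO and 4 control arrays. The difference was -0.41 (SE 0.10, limma adjusted p = 0.0347) with no overlap. The call was lost without Lrp5 KO array 3 or 4 or control array 1, 2 or 3 (adjusted p 0.0662 to 0.0882), and was -0.16 (0.0533) without background correction. The related scaffold Slc9a3r1 differed by -0.18 (adjusted p = 0.13), and Slc7a6os by 0.17 (adjusted p = 0.267).

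Partners and pumps that carriers depend on were taken as a list of 19 genes, of which 15 were on the array and 12 were tested. There was 1 higher and 2 lower, with a median change of -0.04. Over all genes tested, 3.54% were higher and 5.08% lower. Atp1b1, a beta subunit of the sodium pump that maintains the gradient used by sodium-coupled carriers, read 7.05, 6.60, 6.80 and 6.63 on Lrp5 KO arrays and 7.44, 7.72, 7.60 and 6.95 on control arrays. Control array 4 fell within the Lrp5 KO range. Atp1b1 fell by 0.66 (SE 0.16, limma adjusted p = 0.0333), and the call was lost without Lrp5 KO array 2, 3 or 4 or control array 1, 2 or 3 (adjusted p 0.069 to 0.0881). The change in Atp1b1 was -0.36 with the authors' log2 table. The other beta subunit tested, Atp1b3, differed by -0.05 (adjusted p = 0.586).

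Fxyd5, which modulates the sodium pump, read 10.57, 10.75, 10.71 and 10.67 on Lrp5 KO arrays and 10.29, 10.24, 10.34 and 10.60 on control arrays. The groups overlapped through control array 4. Fxyd5 rose by 0.31 (SE 0.08, limma adjusted p = 0.0476), and every array but control array 4 was needed for the call (adjusted p 0.0592 to 0.123 without one of the others). The call was also lost with the replicate block (0.0762), with the looser filter (0.0835), without a filter (0.101) and over each detected probe (0.056). Slc9a3r2 was the other fall on the list. Embigin (Emb), a partner of lactate carriers, differed by -0.23 (adjusted p = 0.218).

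**Figure D4:**
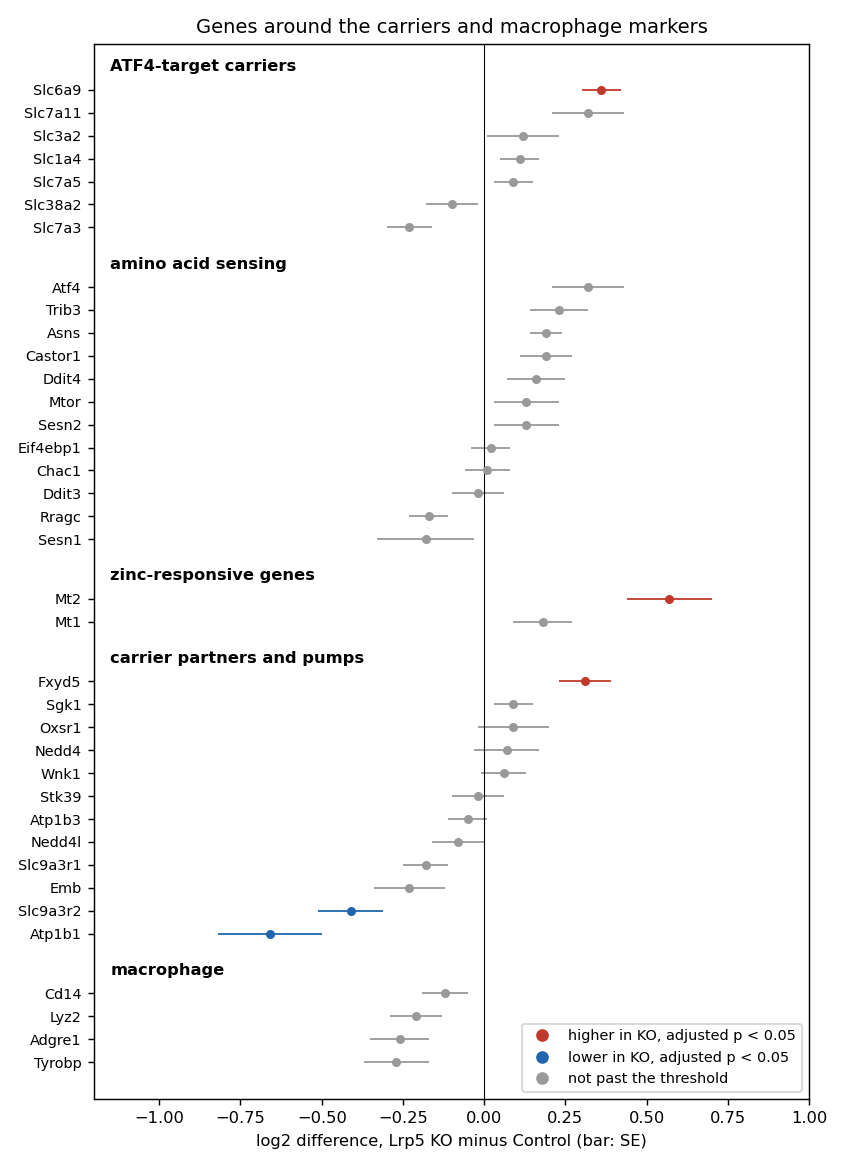
The difference in log2 intensity, Lrp5 KO minus control (horizontal axis, bars are SE), for the tested genes of 5 lists set beside the carriers. Mt2 rose by 0.57 and Atp1b1 fell by 0.66 (-0.36 with the authors' log2 table). None of 12 amino acid sensing genes passed the threshold. All 4 macrophage markers tested lay below 0, of which Tyrobp was near background.

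Of the 12 called members, Slc39a4, Slc6a9, Slc2a6 and Slc6a8 passed the threshold with every array left out in turn. They also passed in each other setting that tested them. Of these 4, Slc39a4 was not tested where detection on all 8 arrays was required. The other 8 kept their direction in all settings and lost the call in at least 1. Without a detection filter, which tests 16593 genes, Slc13a3, Slc15a3, Slc29a3, Slc30a7, Slc39a6, Slc7a7 and Slc9a3r2 lost it (adjusted p 0.0527 to 0.102).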

How the data were processed

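Gene expression was measured on 8 Illumina arrays, 4 Lrp5 KO and 4 control, grouped by genotype in the labels. Per the file headers, the authors deposited a signal intensity and a detection p-value column for each of 25697 probes. The processing notes name GenomeStudio, with no version. The deposited intensity values are linear, with array medians of 126 to 155 and a lowest value of 91.6, so no normalization or background subtraction was assumed. The deposited detection p-value column increased with intensity (Spearman correlation 0.979 or more on each array), so 1 minus it was used. A second table that the authors deposited holds log2 values whose median is 6.89 on all arrays and which rank the probes of an array exactly as its intensities do. It was used only as an alternative, and the sources used here do not say how its values were scaled.

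Background correction and quantile normalization used neqc of limma 3.58.1 (R 4.3.3, offset 16). Per gene, the brightest probe among those detected (p under 0.01) on at least 4 arrays was used, which kept 105 member probes for 83 members, 16 of them with more than 1 probe. Groups were compared with lmFit and eBayes over all 7041 genes, adjusted by Benjamini-Hochberg and called below 0.05, and changes are Lrp5 KO minus control in log2. Exact permutation tests were two-sided. Levels were not compared between probes, whose brightness differs. The number of arrays limits the precision. The steps were tested on simulated data.

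Symbols came from the platform annotation (23978 probes with 1 symbol, 0 with several, 1719 with none), and all 369 member probes matched RefSeq by gene ID. Promoter sequences are RefSeq's (GRCm38.p6). Substrate groups were assigned by family, or by gene where members of a family carry different substrates, such as Slc6a8 and Slc6a9. Slc66a1, Slc66a2, Slc49a4 and Slc7a6os were assigned after their symbols were seen on the array. The members, the lists and the alternatives were chosen with earlier results of these data known. Named are all members past the threshold, the 3 members of each substrate group with the smallest p, 28 listed carriers, Lrp5 and genes of the lists. Members named as examples outside that rule were chosen after their values were seen. No array repeated another (0 of 28 pairs). Alternatives covered background correction, scaling, the authors' log2 table, replicate block, array weights, detection filters, the choice of probe, the prior, and leaving out each array.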

Additional observations from a re-analysis of the deposited data

Results flagged for a closer look

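In 102 groups of 4 arrays, from 51 named genes, 8 held an array whose gap to the nearest of the others was larger, relative to the group's range, than the 95% critical value of Dixon's test, which chance passes at a rate of 0.05. Control array 4 was that array 4 times. It read 9.37 for Slc6a8 (others 9.63 to 9.66, gap 0.9 of the range), 10.86 for Slc39a6 (others 11.06 to 11.09, gap 0.88), 10.38 for Slc6a9 (others 10.30 to 10.31, gap 0.887) and 8.41 for Slc1a3 (others at least 8.92, gap 0.879). For all 4 genes, of which the first 3 were called, it lay on the side of the Lrp5 KO arrays.

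The other flags each had a different array. Lrp5 KO array 4 read 9.67 for Slc1a4 (others 9.47 to 9.50, gap 0.843). Control array 2 read 8.05 for Slc29a3 (others 7.76 to 7.78, gap 0.93). Control array 1 read 8.76 for Slc35a2 (others 8.89 to 8.92, gap 0.847), and control array 3 read 9.47 for the macrophage marker Adgre1 (others 9.73 to 9.76, gap 0.891).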

How the results depend on the processing

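Over all genes, 607 calls became 979 without background correction, 971 with the authors' log2 table, 965 with a trended and robust prior and 376 without a detection filter, and 323 to 718 with 1 array left out. The 12 member calls became 5 without a filter (2 higher, 3 lower) and 7 with the looser filter (3 higher, 4 lower). With 1 array left out there were 5 to 13, of which 2 to 6 higher and 3 to 7 lower. A detection p of 0.05 moved the difference in member probes detected from -4 to -6.5, and leaving out 1 array gave -6.33 to -2.67. No called member changed direction. Slc12a2 turned to -0.02 (adjusted p 0.883) without control array 4, the lowest of -0.02 to 0.14 with 1 array left out. Slc30a5 turned to -0.03 (0.84) with the mean of its probes, to -0.02 (0.905) without control array 4, and was 0 (0.99) without Lrp5 KO array 2, within -0.02 to 0.09 with 1 array left out. The causes of these shifts were not tested.

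The labels give both groups the replicate numbers 1 to 4. Same-numbered arrays did not deviate together (correlations of deviations -0.033 to 0.089, other pairs -0.095 to 0.15), so the numbers were not taken as pairs. With the replicate block, 408 genes and 10 members were called, 8 of the 12 and 2 others. Dim genes such as Slc39a4, Slc7a7 and Slc9a3r2, near background in 1 group, are the least precise.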

Other observations

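Markers of other cell types were read on the same arrays. Of 6 chondrocyte markers on the array 3 were tested and 1 rose: Col2a1, the collagen of cartilage, read 10.77, 10.71, 10.70 and 10.75 on Lrp5 KO arrays and 10.34, 10.30, 10.42 and 10.08 on control arrays. Col2a1 was 0.45 higher (SE 0.08, limma adjusted p = 0.00757), while Sox9 differed by 0.20 (adjusted p = 0.356) and Comp by 0.12 (adjusted p = 0.664). Of 6 muscle markers 1 was tested, Acta1, which fell by 0.73 (SE 0.15, limma adjusted p = 0.0153) with no overlap between the groups, and Myod1, Myog, Des, Tnnt3 and Ckm were detected on no array. Both calls held in every setting that was run, with Acta1 at -0.45 with the authors' log2 table.

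Of 7 osteoclast markers 2 were tested. Ctsk differed by 0.17 (adjusted p = 0.114) without overlap and Mmp9 by 0.02, while Acp5, Calcr, Atp6v0d2, Dcstamp and Oscar were detected on no array. Of 7 adipocyte markers Lpl alone was tested, at 0.12 (adjusted p = 0.345). None of 6 endothelial and 2 erythroid markers on the array was tested.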
